A study of Mus musculus with 4 samples.

Results

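The 42 genes described here carry out cholesterol synthesis, bile acid formation and lipoprotein handling in the liver, and were taken as a list of named genes from the 21883 protein-coding genes of the RefSeq table. The mark mapped was H3K23pr, a propionyl group on lysine 23 of histone H3, and its called peaks were collected over each gene and 5 kb on both sides. This window held 17 of the 41907 peaks of the KO library and 30 of the 54397 peaks of the WT library. KO chromatin came from liver of male C57BL/6 mice with the hepatocyte-specific RPN11 knockout, and WT chromatin from male C57BL/6 mice labelled RPN11 flox/flox, the control. Each genotype had 1 immunoprecipitate (IP), and its peaks had been called against 1 input of the same genotype. The age and diet of the mice, the driver of the recombinase and any pooling of animals were not given in the sources used here, and liver cells other than hepatocytes keep RPN11 in the KO by design. RPN11 is the product of Psmd14 and removes ubiquitin chains from proteins bound for breakdown by the proteasome, and fatty liver is the subject of the series.

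The liver makes cholesterol from acetyl-CoA through mevalonate, farnesyl diphosphate, squalene and lanosterol. SREBP-2, the product of Srebf2, switches these genes on when sterols are low, after SCAP has carried it out of the endoplasmic reticulum, where INSIG-1 otherwise holds it back. Hepatocytes turn cholesterol into bile acids, join these to taurine or glycine and take them up again from portal blood, and they send cholesterol and triglyceride out in lipoproteins built on apolipoprotein B. Histone propionylation draws on propionyl-CoA, and has been linked to active chromatin.

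The IP libraries held 15468265 fragments in KO and 13615838 in WT after duplicate filtering, with a mean fragment size of 71 bp in KO and 97 bp in WT. With 1 library per genotype no test across samples could be made, so each difference compares 1 library with another, without a replicate check. Intervals are exact 95% Poisson or binomial intervals and cover counting error only. They treat peaks as independent, so they are too narrow where peaks cluster. Psmd14 held 10 peaks in KO and 7 in WT, against means of 1.90 and 2.50 over 648 genes of like length. These were peaks of 4 to 7 fragments in KO and 4 to 6 in WT, which do not check the knockout. Peaks near a gene do not show its expression, so the liver label could not be checked by markers. The windows of 8 hepatocyte genes held 17 KO and 6 WT peaks, and those of Kupffer, stellate, endothelial and cholangiocyte marker genes, 5 each, held 3, 12, 5 and 1 KO peaks and 6, 16, 7 and 4 WT peaks.

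The members together carried about as many peaks as other genes of their length. For each member, the mean number of peaks was taken over other protein-coding genes whose length was within 10% of it, and these means summed to 18.1 in KO and 27.8 in WT. The observed 17 KO peaks were 0.938 times that sum (95% interval 0.546 to 1.50), and the 30 WT peaks were 1.08 times (0.728 to 1.54). A peak was found at 8 members in KO (19.0%) and at 15 in WT (35.7%). Over all protein-coding genes, which are longer on average, 33.3% had a KO peak and 47.7% a WT peak. Genes of the members' lengths would have given 10.4 members in KO and 16.9 in WT. KO had 0.567 times the WT number of member peaks (0.293 to 1.06), against 0.770 times over the full lists. Scaled to list size the ratio was 0.736 (0.381 to 1.38), an interval that includes 1. This rested on Baat, since without it the KO to WT ratio was 0.367 (0.166 to 0.753), and for the 36 members other than bile acid genes it was 0.208 (0.0621 to 0.557). Both of these intervals lay below the list ratio of 0.770, which is not matched for gene length. Genes of like length gave 17.7 KO and 27.2 WT peaks for the members without Baat. For the 36 members they gave 14.0 KO and 21.8 WT peaks. Without Baat the KO peaks were thus 0.621 times like length (0.310 to 1.11), an interval that includes 1. For the 36 members the KO peaks were 0.357 times like length (0.116 to 0.834). The WT peaks were 1.10 times like length in both sets. Both sets were formed with the values known, so no lack of KO peaks is read from them.

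Few members were called in both libraries, and overlapping pairs were too rare over all genes for their absence to mark the members. Peaks of both genotypes were found at Akr1d1, Slc10a1 and Mttp, or 3 members, where genes of like length gave 6.32 members and 24.3% of all protein-coding genes had both. Of the 42 members a further 5 had KO peaks only and 12 had WT peaks only, against backgrounds of 9.05% and 23.4%. The other 22 had no peak in either list, against 43.3% of all genes. These shares over all genes are not matched for gene length, and the members are shorter on average. No member held overlapping KO and WT peaks, a share whose exact 95% binomial interval reaches 8.41% of members. Over all genes 1.03% held such a pair, a share inside that interval, so the 0 is not read as a result about the members. The closest pair lay in Akr1d1, 0.492 kb apart, and 3.39% of all genes held peaks at most 500 bp apart. From a member's peak to the nearest peak of the other list the median distance was 40.0 kb for KO peaks and 37.1 kb for WT peaks.

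**Figure D1:**
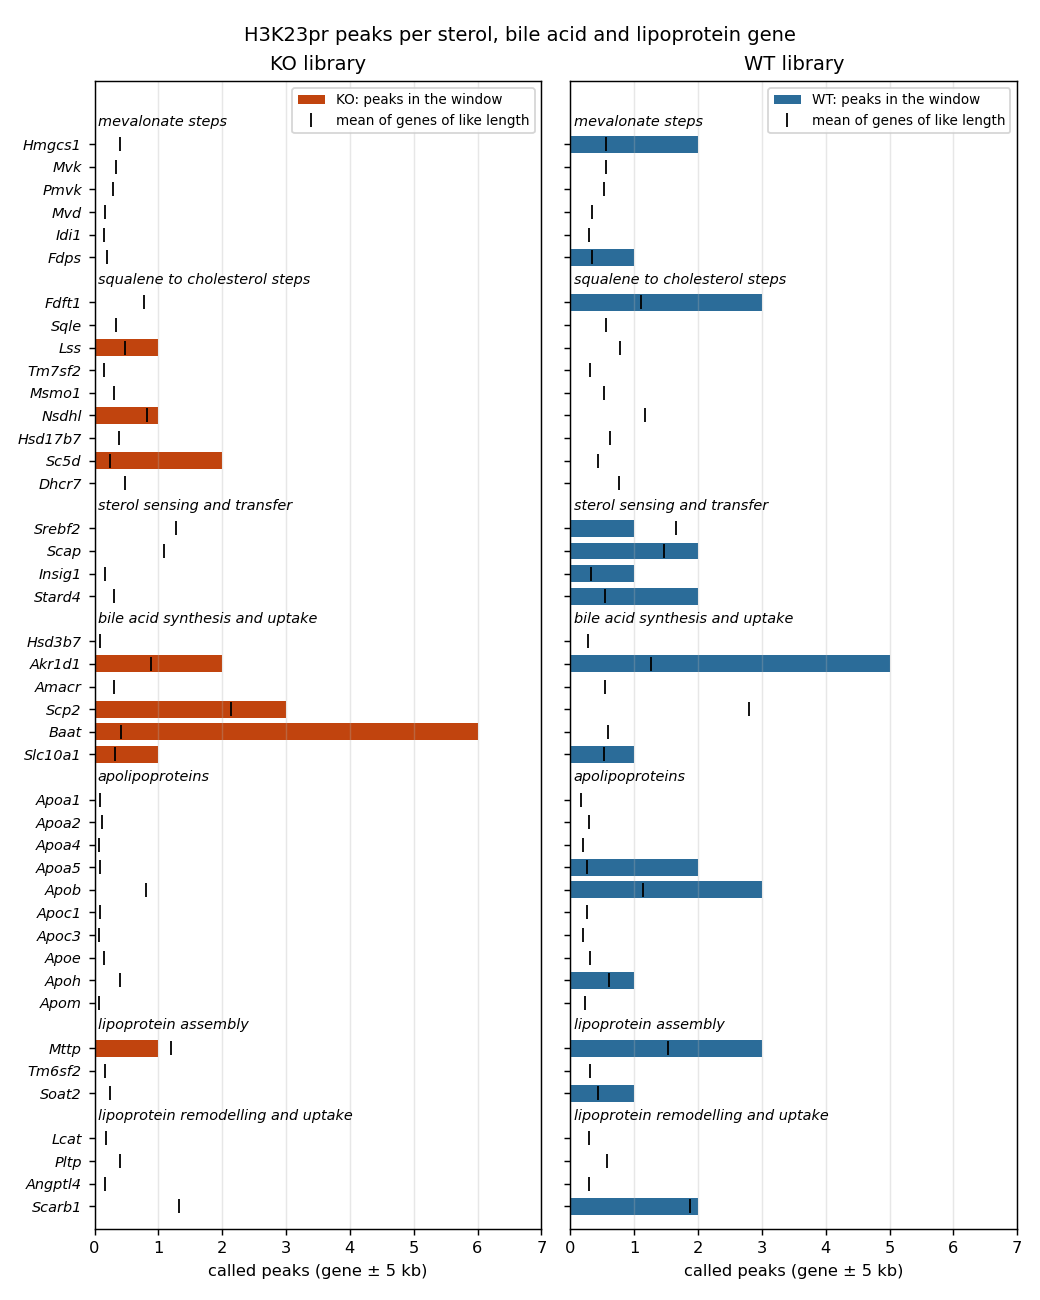
Called H3K23pr peaks in each gene with 5 kb on both sides (bars, x axis in peaks) for the KO library and the WT library, ordered by pathway step, with the mean of protein-coding genes of like length (black ticks). Baat had 6 peaks in KO and 0 in WT, Akr1d1 had 2 in KO and 5 in WT, and 22 genes had none in either.

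The peaks stood low over the background. Member peaks had 4 to 7 IP fragments at the summit in KO and 4 to 8 in WT, with the authors' folds from 3.01 to 5.10 in KO and from 2.90 to 5.20 in WT. Of the KO peaks 47.1% (95% interval 22.98 to 72.2) had 6 or more fragments, against 29.9% in the whole KO list and 32.3% of KO peaks in the windows of all protein-coding genes. Of the WT peaks 66.7% (47.2 to 82.7) did, against 34.3% in the whole WT list and 37.2% in the windows of all protein-coding genes. The interval of the WT members thus lay above the value of both wider sets, while that of the KO members included both. The caller's q was 0.05 or smaller for 6 of 17 KO peaks (35.3%, 14.2 to 61.7) and 8 of 30 WT peaks (26.7%, 12.3 to 45.9), where the whole lists gave 27.2% and 9.53%. The headers announce no calculation of q, yet its column is filled with values that follow p in both lists, and how they were obtained is not given in the sources used here. At this threshold the list ratio of KO to WT peaks turned to 2.20. The 8 WT peaks were 2.35 times the sum of like-length means (1.01 to 4.62).

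**Figure D2:**
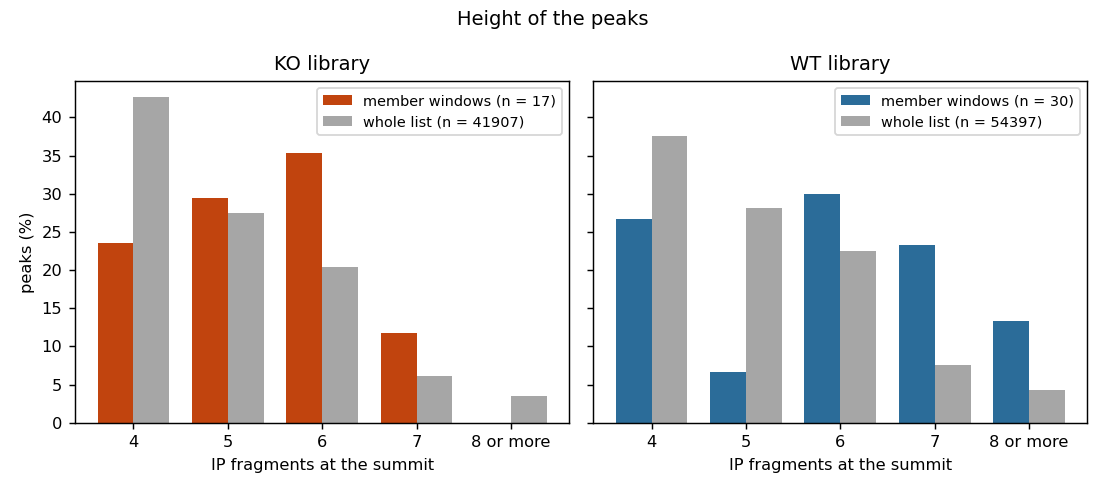
Share of peaks (y axis, percent) by the number of IP fragments at the summit (x axis), for peaks in the members' windows (coloured) and all peaks of the list (grey), in the KO and WT libraries. In KO none of 17 member peaks had 8 or more fragments, and in WT 4 of 30 did.

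Longer members had a peak more often. All 9 members of 30 kb or more had a peak in at least 1 list, as did 8 of the 16 members from 10 to 30 kb and 3 of the 17 under 10 kb. Genes of like length to the 9 longest had a KO peak in 43.0 to 70.0% and a WT peak in 63.4 to 87.5%. For the 16 these shares were 18.1 to 31.0% and 34.0 to 51.4%, and for the 17 they were 6.37 to 15.7% and 14.2 to 28.0%. Each share is for 1 list alone. The median length was 22.3 kb for members with a peak and 6.73 kb for those with none, and over all protein-coding genes it was 33.2 kb and 7.45 kb. Members with a peak had a median of 3 other protein-coding genes within 50 kb, and members with none had 5.

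Gene bodies and flanks held peaks at densities whose intervals overlapped. Bodies held 12 of the KO peaks and 18 of the WT peaks, or 1.41 per 100 kb (0.729 to 2.46) in KO and 2.12 (1.25 to 3.34) in WT. The 5 kb flanks held 5 KO and 12 WT peaks, or 1.19 per 100 kb (0.387 to 2.78) in KO and 2.86 (1.48 to 4.99) in WT. Over all protein-coding genes the bodies held 1.77 in KO and 2.31 in WT, and the flanks 1.28 in KO and 2.10 in WT, all within the members' intervals. At the edge of the window, the outermost Baat peak in KO lay 4.95 kb from the gene and the outer Apoa5 peak in WT 4.41 kb. Just outside it lay a KO peak 5.77 kb from Hsd17b7 with 6 fragments, a WT peak 5.16 kb from Apob with 5 and a WT peak 6.04 kb from Apoh with 4.

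**Figure D3:**
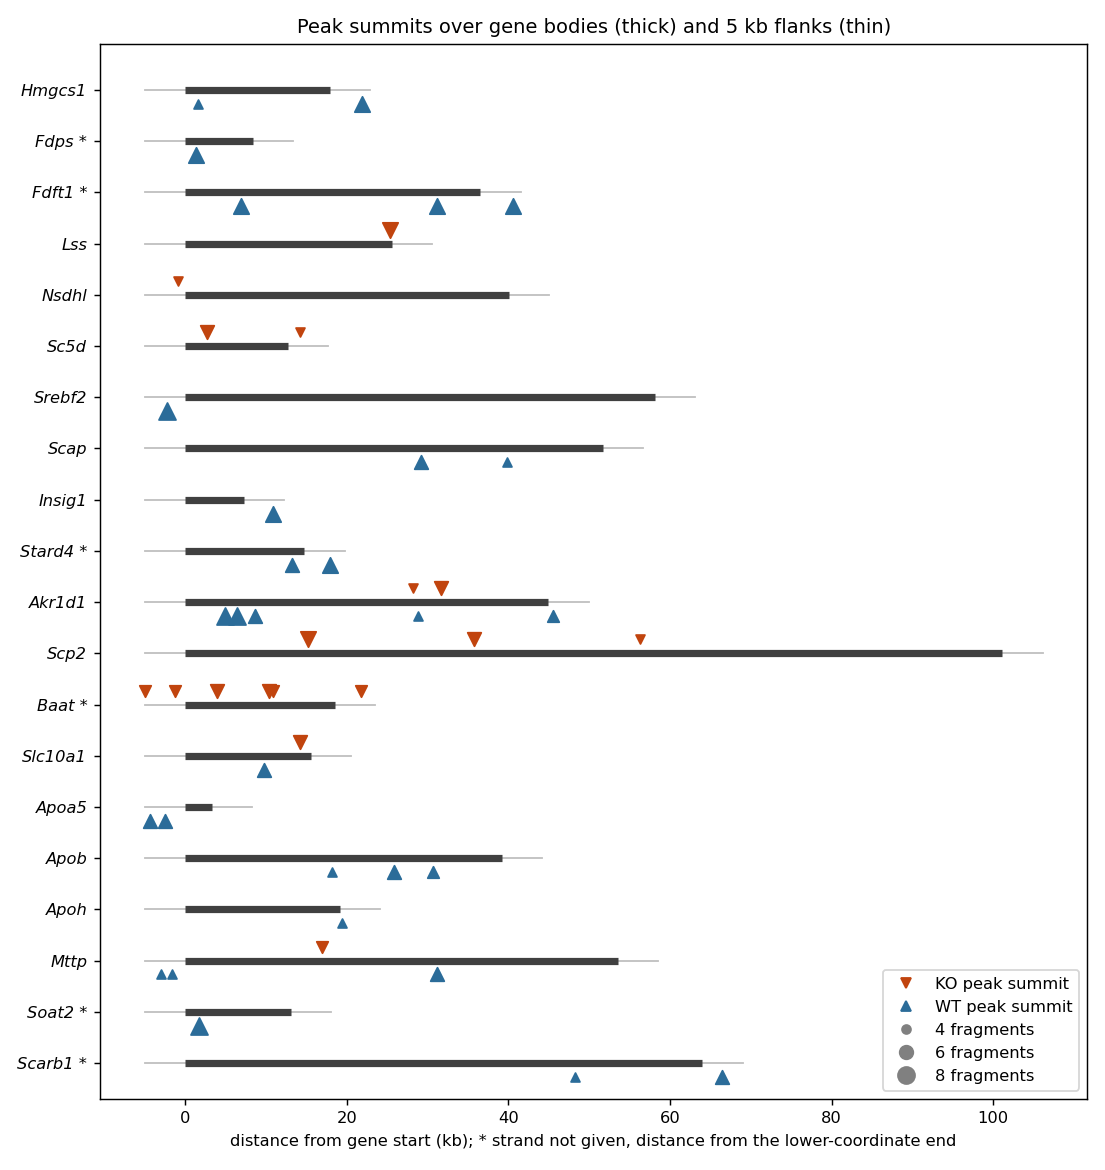
Summits of KO peaks (downward triangles above each gene) and WT peaks (upward triangles below it) for the 20 members with a peak, on an x axis of distance from the gene's start in kb, with triangle size for IP fragments. Where no strand was given (asterisk) the distance is from the lower-coordinate end. KO and WT summits came closest at Akr1d1, and the 6 KO peaks of Baat spread over the gene and both flanks.

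RefSeq promoters of GRCm38.p6, the assembly of mm10, running from 250 bases before to 50 after a start site, were found for 30 of the 42 members. None of their 39 promoters held a KO or a WT peak, where 0.193% of 21262 protein-coding gene promoters did in KO and 0.442% in WT. The promoters shown are those of the sterol genes Hmgcs1, Nsdhl and Srebf2 and of the lipoprotein gene Mttp, the 4 members with a known strand whose peaks lay nearest to their start, at 0.899 to 2.20 kb. Each is written 5′ to 3′ on the strand of its gene. Capitals mark matches, on either strand, to the CCAAT box, read by the factor NF-Y that works beside SREBP-2, and to TCACNCCAC, a form of the sterol regulatory element.

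Hmgcs1 promoter, chr13:119690101-119690400, plus strand: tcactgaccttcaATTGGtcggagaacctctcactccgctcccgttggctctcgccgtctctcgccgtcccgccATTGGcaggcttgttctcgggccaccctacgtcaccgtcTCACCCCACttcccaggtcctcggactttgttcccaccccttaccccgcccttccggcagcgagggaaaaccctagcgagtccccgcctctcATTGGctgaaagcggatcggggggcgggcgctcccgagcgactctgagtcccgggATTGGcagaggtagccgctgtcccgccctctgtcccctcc
Nsdhl promoter, chrX:72918271-72918570, plus strand: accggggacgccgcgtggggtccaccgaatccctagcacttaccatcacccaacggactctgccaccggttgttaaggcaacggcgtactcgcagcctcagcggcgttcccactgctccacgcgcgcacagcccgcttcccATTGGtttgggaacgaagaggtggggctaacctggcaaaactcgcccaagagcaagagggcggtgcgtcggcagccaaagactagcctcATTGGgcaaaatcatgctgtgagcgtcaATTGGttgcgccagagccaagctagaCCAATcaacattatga
Srebf2 promoter, chr15:82147019-82147318, plus strand: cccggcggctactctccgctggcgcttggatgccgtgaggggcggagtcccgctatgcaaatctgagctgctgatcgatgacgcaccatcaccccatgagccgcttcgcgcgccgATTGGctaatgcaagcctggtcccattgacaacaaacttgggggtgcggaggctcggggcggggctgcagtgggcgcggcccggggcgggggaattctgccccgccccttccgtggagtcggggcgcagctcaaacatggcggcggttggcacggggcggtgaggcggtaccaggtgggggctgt
Mttp promoter, chr3:138143369-138143668, minus strand: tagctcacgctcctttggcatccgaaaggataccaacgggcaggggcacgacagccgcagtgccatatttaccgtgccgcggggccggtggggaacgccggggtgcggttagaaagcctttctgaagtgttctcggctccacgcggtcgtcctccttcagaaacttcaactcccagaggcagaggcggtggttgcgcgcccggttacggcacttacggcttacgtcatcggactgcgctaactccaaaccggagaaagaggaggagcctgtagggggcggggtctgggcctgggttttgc

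A CCAAT box stood in a promoter of 17 of the 30 members, or 56.7%, against 42.3% of all protein-coding genes with a promoter in the table. By pathway it stood at 14 of 15 sterol genes, 0 of 4 bile acid genes and 3 of 11 lipoprotein genes, a split made after the matches were seen. These promoters also differed in base content, with a median of 64.0% G or C at sterol, 53.5% at bile acid and 57.3% at lipoprotein genes. The median number of CG pairs was 23, 4.5 and 7, from the highest value per gene. The share over all genes was not matched for base content. The promoter of Nsdhl held 4 CCAAT boxes, that of Srebf2 held 1 and that of Mttp none. TCACNCCAC was found in 1 member, Hmgcs1, whose promoter also held 4 CCAAT boxes, and in 1.41% of all genes. It did not overlap them. Other forms of the sterol regulatory element were not searched for, so a promoter without this match is not shown to lack one. AGGTCA, the hexamer shared by many nuclear receptors, was found in 8 members (26.7%) and in 16.7% of all genes. The members were the bile acid genes Akr1d1, Scp2 and Slc10a1, the sterol genes Dhcr7, Hmgcs1 and Insig1, and Apoa2 and Apoh. The Scp2 promoter used, at 108118498 to 108118797, lies inside the annotated gene. These matches describe the letters in the windows, and no peak of either library touched them.

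The mevalonate steps had KO peaks at 0 of 6 genes and WT peaks at 2, where genes of like length gave 1.15 and 1.99. Their windows held 0 KO and 3 WT peaks, against 1.54 and 2.61 for like length. The exact interval of a count of 0 reaches 3.69 peaks, so a lack of KO peaks was not detectable here. Hmgcs1, which makes HMG-CoA (chromosome 13, 119690351 to 119708260, mm10), had a WT peak of 4 fragments 1.58 kb inside the gene from its start, with a fold of 2.96. A second WT peak there, of 7 fragments and 4.34-fold, lay 3.97 kb past the end of Hmgcs1, over the neighbouring gene Nim1k. Fdps, which makes farnesyl diphosphate, had a WT peak of 7 fragments and 4.06-fold inside the gene at 89094724 to 89094902 on chromosome 3. Mvk, Pmvk, Mvd and Idi1, which turn mevalonate into isopentenyl units, had none in either library.

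Between squalene and cholesterol 3 of 9 genes had a KO peak, 1 had a WT peak and none had both, where genes of like length gave 2.53, 4.12 and 1.48 genes. Their windows held 4 KO and 3 WT peaks, against 4.00 and 6.26 for like length. Lss, lanosterol synthase (chromosome 10, 76531565 to 76557139), had a KO peak of 7 fragments, 5.10-fold, and no WT peak. This peak ranked 1182 of the 41907 KO peaks by caller p, and lay 0.235 kb before the end of Lss, where the annotation also places 4930483K19Rik. Sc5d, the sterol desaturase of a late step, had a KO peak of 6 fragments and 3.95-fold, 2.72 kb inside the gene from its start, and another of 4 fragments 1.46 kb past its end. Sc5d thus had 2 KO peaks and no WT peak, and 48 of 1032 genes of like length had 2 or more KO peaks. Nsdhl, which acts in methyl removal between lanosterol and cholesterol, had a KO peak of 4 fragments. The peak lay 0.899 kb upstream of the start of Nsdhl, over the neighbouring gene Cetn2. It was the sole member peak within 1 kb of a gene start, and with a rank of 41119 of 41907 one of the weakest of the KO list.

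Fdft1, squalene synthase (chromosome 14, 63145150 to 63181687), had no KO peak and 3 WT peaks. Each of the 3 held 7 fragments, with folds of 4.73, 4.62 and 4.09. Both higher ones lay inside the gene, and the third, past the higher-coordinate end, lay over the neighbouring gene Neil2. Among 1025 genes of like length 126 had 3 or more WT peaks, and over all genes 15.0% did. Sqle, Tm7sf2, Msmo1, Hsd17b7 and Dhcr7 had no peak in either library.

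None of the 4 genes of sterol sensing and transfer had a KO peak, and all 4 had a WT peak, where like length gave 1.44 and 2.15 genes. Their windows held 0 KO and 6 WT peaks, where like length gave 2.83 and 3.98. The exact interval of the KO count reached 3.69 peaks and so included the like-length value. Srebf2 (chromosome 15, 82147269 to 82205379) had 1 WT peak, of 8 fragments and 5.16-fold, 2.20 kb upstream of its start and outside any annotated gene. By caller p it ranked 1444 of 54397. Insig1 (chromosome 5, 28071412 to 28078662) had a WT peak of 7 fragments, 4.73-fold, 3.62 kb past its end, over the predicted gene Gm35223. Scap had WT peaks of 6 and 4 fragments inside the gene, 29.1 and 39.8 kb from its start. Stard4, which carries cholesterol between membranes, had WT peaks of 6 fragments inside the gene and 7 fragments 3.14 kb past its higher-coordinate end.

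**Figure D4:**
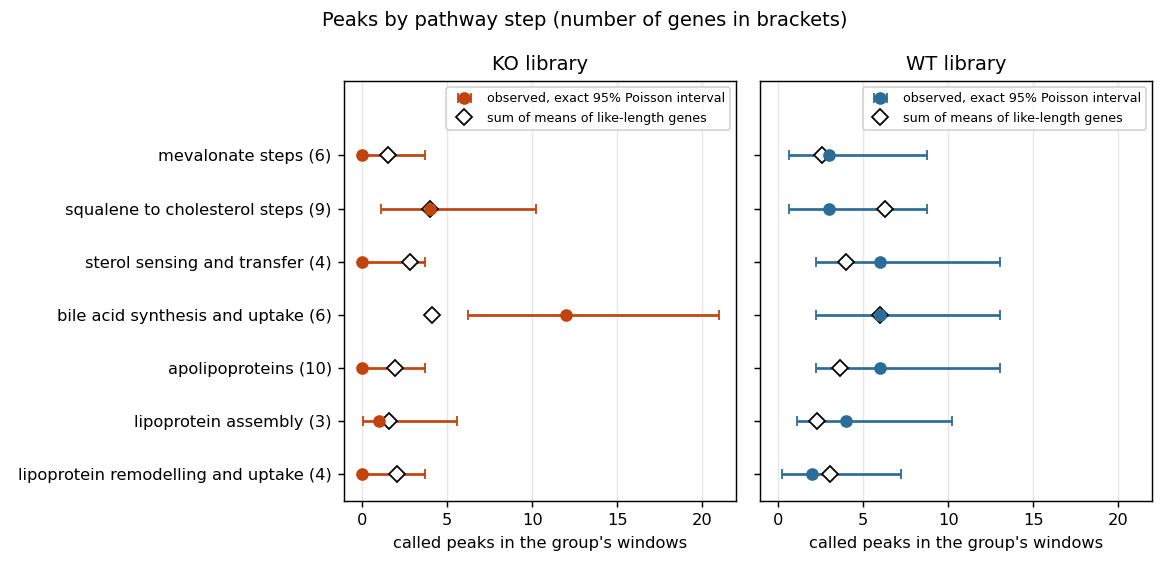
Number of called peaks in the windows of each pathway step (x axis) in the KO library and the WT library. Bars are exact 95% Poisson intervals for counting error, which treat peaks as independent. Open diamonds are the sum of the means of like-length genes. Bile acid genes had 12 KO peaks against 4.13 for like length, and the diamonds lay inside the intervals of all other groups in both libraries.

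KO peaks gathered at the bile acid genes, which held 12 of the 17. A KO peak was found at 4 of the 6 genes and a WT peak at 2, where like length gave 1.94 and 2.97 genes. The windows of the 6 genes held 12 KO peaks (95% interval 6.20 to 21.0) and 6 WT peaks (2.20 to 13.1), where genes of like length gave 4.13 and 5.99. The KO number was 2.90 times the like-length value (1.50 to 5.07) and the WT number 1.00 times (0.367 to 2.18). The other 36 members held 5 KO and 24 WT peaks, 0.357 times (0.116 to 0.834) and 1.10 times (0.705 to 1.64) their like-length values. This set was formed with the values known, and leaving out the group with 12 of the 17 KO peaks lowers its KO ratio by construction. Baat supplied 6 of the 12 KO peaks, and the interval of the KO ratio does not allow for such clustering. Without Baat the bile acid genes held 6 KO and 6 WT peaks, the KO number was 1.61 times like length (0.591 to 3.51), and all members held 11 KO peaks, 0.621 times (0.310 to 1.11).

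Baat, the enzyme that joins bile acids to taurine or glycine (chromosome 4, 49489416 to 49507915), had 6 KO peaks and no WT peak. Inside the gene lay 3 of them, with 6, 6 and 5 fragments and folds of 4.46, 4.36 and 3.38, in a stretch where the annotation also places Gm32894. The flanks held the other 3, with 5 fragments each. Over all genes 4.07% had 6 or more KO peaks. Among 1200 genes of like length 3 had as many, and the mean was 0.407 in KO and 0.587 in WT. The KO peaks of Baat did not stop at the window, a comparison added after its values were seen. In the next 50 kb on both sides lay 13 KO peaks and 1 WT peak, where genes of like length had means of 1.34 and 2.22, and 4 of the 1200 had as many in KO. Windows of neighbouring genes held KO peaks as well, with 8 at Acnat1, 3 at Mrpl50 and 2 at Zfp189, some of them shared between windows, against 1 WT peak at Acnat1 and 0 at Mrpl50 and Zfp189.

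Akr1d1, the reductase that sets the bent ring shape of bile acids (chromosome 6, 37529978 to 37574921), had 2 KO and 5 WT peaks. The KO peaks, of 4 and 6 fragments and folds of 3.19 and 4.22, lay 28.2 and 31.6 kb from its start. In WT, 3 peaks of 8, 8 and 6 fragments lay between 4.93 and 8.64 kb from its start, with folds of 5.07, 5.20 and 4.11. The other WT peaks of Akr1d1 lay 28.8 kb from its start, with 4 fragments, and 0.517 kb past its end, with 5. Both libraries thus had peaks in the middle of the gene, and WT alone near its start. Among 946 genes of like length 202 had 2 or more KO peaks and 16 had 5 or more WT peaks.

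Scp2, a peroxisomal thiolase of bile acid side chains and sterol carrier (chromosome 4, 108043830 to 108144971), had 3 KO peaks, of 4, 6 and 7 fragments, all inside the gene, and no WT peak. It is the longest member at 101 kb, and genes of like length had means of 2.14 KO and 2.80 WT peaks. Slc10a1, the sodium-driven bile acid uptake carrier (chromosome 12, 80953185 to 80968705), had 1 peak in each library inside the gene, 4.33 kb apart. Both peaks of Slc10a1 had 6 fragments, and the folds were 4.46 in KO and 3.68 in WT, over backgrounds of 0.568 and 0.901 fragments. Hsd3b7 and Amacr, which act on the sterol ring and the side chain, had none.

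Of 17 other bile acid genes, 10 had a KO peak and 13 a WT peak, where like length gave 7.25 and 10.1 genes. Their windows held 43 KO peaks, 2.55 times like length (1.84 to 3.43), and 37 WT peaks, 1.57 times (1.11 to 2.17). Cyp7b1, a hydroxylase of the alternative pathway, had the most of them in both libraries, with 14 in KO and 10 in WT over 172 kb. The hepatocyte marker list held 17 KO peaks, 3.53 times like length (2.06 to 5.65), and 6 WT peaks, 0.831 times (0.305 to 1.81). The excess of KO peaks over like length was thus also measured at both of these lists, and its part in the bile acid count was not tested. It was not seen at the other sterol genes, 0.564 times like length (0.207 to 1.23). Nor was it seen at the other lipoprotein genes, 0.715 times (0.357 to 1.28).

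Apolipoprotein genes had KO peaks at 0 of 10 and WT peaks at 3, where genes of like length gave 1.34 and 2.70. Their windows held 0 KO and 6 WT peaks, against 1.95 and 3.66 for like length. Apob, the structural protein of very low density lipoprotein (chromosome 12, 7977629 to 8016839), had 3 WT peaks inside the gene, of 4, 6 and 5 fragments, 18.1, 25.9 and 30.6 kb from its start. Apoa5, which promotes the breakdown of triglyceride in lipoproteins (chromosome 9, 46268608 to 46271921), had 2 WT peaks of 6 fragments each in its upstream flank, 4.41 and 2.44 kb from its start and outside any annotated gene. Among 527 genes of like length 20 had 2 or more WT peaks. Apoh, a phospholipid-binding plasma protein, had a WT peak of 4 fragments 0.304 kb past its end. The short genes Apoa1, Apoc3 and Apoa4, whose windows overlap, and Apoe and Apoc1, whose windows also overlap, had no peak in either library, nor did Apoa2 and Apom.

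Lipoprotein assembly genes held 1 KO and 4 WT peaks, against 1.61 and 2.27 for like length. Mttp, which loads lipid onto apolipoprotein B (chromosome 3, 138089855 to 138143418), had 1 KO peak of 5 fragments, 3.82-fold, 17.0 kb from its start. In WT Mttp had a peak of 6 fragments inside the gene, 31.1 kb from its start, and 2 of 4 fragments upstream, 1.61 and 2.94 kb from its start and over the neighbour Trmt10a. The KO peak of Mttp and the nearest WT peak lay 14.1 kb apart. Soat2, which esterifies cholesterol, had a WT peak of 8 fragments but a fold of 3.67, over a background of 1.45 fragments, the highest among the WT member peaks. Tm6sf2, needed to fill these particles with lipid, had none.

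Lipoprotein remodelling and uptake had KO peaks at 0 of 4 genes and WT peaks at 1, where like length gave 1.12 and 1.70 genes. Their windows held 0 KO and 2 WT peaks, against 2.06 and 3.03 for like length. Scarb1, the receptor that takes up cholesterol from high density lipoprotein (chromosome 5, 125277087 to 125341094), had WT peaks of 4 fragments inside the gene and 6 fragments 2.46 kb past its higher-coordinate end. Over 775 genes of the length of Scarb1 the means were 1.33 KO and 1.87 WT peaks. Lcat, Pltp and Angptl4, which esterify cholesterol, transfer phospholipid and restrain lipoprotein lipase, had none.

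At the other genes of the sterol and lipoprotein pathways no difference from genes of like length was detectable in the number of peaks, as the interval of each ratio included 1. Of 20 other sterol genes 5 had a KO peak and 9 a WT peak, where like length gave 6.34 and 9.86 genes. They held 6 KO and 13 WT peaks, 0.564 times (0.207 to 1.23) and 0.822 times (0.438 to 1.41) like length. The most KO peaks among them stood at Mbtps2, a protease that releases SREBP, with 2 in KO and 0 in WT, and the most WT peaks at Cyp51, a demethylase of lanosterol, with 0 in KO and 3 in WT. Of 21 other lipoprotein genes 6 had a KO peak and 10 a WT peak, where like length gave 6.62 and 9.83 genes. They held 11 KO and 18 WT peaks, 0.715 times (0.357 to 1.28) and 0.820 times (0.486 to 1.29) like length. Sar1b, which moves lipoproteins out of the endoplasmic reticulum, had 3 peaks in KO and 1 in WT, and Abca1, the cholesterol exporter, had 2 in KO and 5 in WT.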

How the data were processed

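The data were the authors' deposited H3K23pr peak lists, 1 per genotype, each from 1 IP library called against 1 input library. Titles and genotype labels gave the groups. The submitters' processing notes name cutadapt 1.9.3, Bowtie2 2.2.4 and the build mm10. Peaks were called, per the file headers, with MACS2 2.1.1.20160309 in paired-end mode at a p cutoff of 0.001, with at most 2 fragments sharing both ends, separately for each library. The authors' deposited pileup is a signal, the number of IP fragments over the summit. The deposited fold is the ratio of pileup to local background, with a pseudocount of 1 on both, and the background given here was recomputed from it. The p and q per peak are the authors' −log10 values, used to rank and filter peaks within a list. The deposited peak length and summit are in bp.

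Gene positions were RefSeq's for GRCm38.p6, without exons, so exons, introns and UTRs were not told apart. Strand was known for the 30 members with a RefSeq promoter, and distances run from the summit to the annotated gene's outermost start. A peak belonged to a gene when it overlapped the gene or 5 kb on either side by at least 1 bp, and could belong to several. Counting was tested on simulated peaks, where 2000 of 2000 windows were counted correctly. Members and lists were chosen with earlier results of these data known. Named were all members with a peak, those with none, Psmd14 and, of the other pathway genes, those with the most peaks per list. Analyses used Python 3.11.15, pandas 2.3.3, numpy 2.4.6 and SciPy 1.17.1, and figures matplotlib 3.10.9. Alternatives were other windows, peak thresholds, overlap rules and comparison genes. The input libraries were not analysed here beyond the authors' calls.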

Additional observations from a re-analysis of the deposited data

How the results depend on the processing

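Of 68 recomputed values, 57 stayed close to the value reported, within 1.5 times for a count and inside the 95% interval for a ratio, and 11 did not. Settings that only dropped peaks, narrowed windows or tightened overlap could not change the 0 members with overlapping peaks, yet counted as close. The KO to WT ratio of 0.367 without Baat also counted as close, being inside a wide interval (0.293 to 1.06). With the gene body alone the WT peaks were 18, and with each list limited to its 30000 strongest peaks they were 19. With q no larger than 0.05 there were 6 KO and 8 WT member peaks, 5 KO and 2 WT peaks at bile acid genes and 1 member with both, and the WT number was 2.35 times like length. With peaks at most 500 bp apart counted as overlapping, 1 member, Akr1d1, held a pair. Without Baat, an alternative chosen after seeing the data like all those for bile acid genes, members held 11 KO peaks and bile acid genes 6. Fewer peaks or genes entered each of these settings except the 500 bp rule, and the cause of the higher WT ratio at the q threshold was not tested. The KO to WT ratio of member peaks was lowest without Baat, at 0.367 (0.166 to 0.753), where the list ratio was 0.770. It was highest at the q threshold, at 0.75 (0.214 to 2.46), where the list ratio was 2.20. With lists of equal size it was 0.684 (0.311 to 1.46). The list ratios are not matched for gene length. No paired analysis was possible because each genotype had 1 library. Peaks of 4 to 8 fragments limit what can be seen at any single gene.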
